A study of Mus musculus with 10 samples.

Results

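The genes of the cytosolic ribosome were followed in RNA-seq of whole mouse kidneys at embryonic day E13.5. Members were taken by name: symbols starting with Rpl or Rps and a digit, together with Rpsa, Rplp0, Rplp1 and Rplp2, leaving out symbols with -ps and the Rps6k kinases. Of 35663 entries in the deposited table, 94 had such a symbol and 88 had a mean of at least 1 FPKM (fragments mapped per kilobase of transcript, scaled to library size) over the 10 libraries. These 88 members were 43 proteins of the large subunit, 31 of the small subunit, the 3 P stalk proteins, 10 paralogs or retrocopies, and Rps19bp1, which carries a ribosomal protein's name but is a binding partner of one. The libraries compared were 4 wild-type, 3 Foxd1GC control and 3 Ntn1SPKO libraries, all of the C57/b6 strain according to the labels. Foxd1GC is a GFP-Cre fusion knocked into Foxd1, so that Cre is made in stromal progenitors. The paper states that a Foxd1 allele is lost with it. Ntn1SPKO kidneys carry that allele and 2 floxed alleles of Ntn1, control kidneys carry Foxd1-Cre and are not labelled with floxed Ntn1, and wild-type kidneys carry neither. Kidneys were sequenced whole, so fewer cells of a type and less RNA per cell cannot be told apart, and the labels do not say whether libraries of a group came from separate litters. P-values therefore measure the spread between these libraries.

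Each ribosome joins a large subunit, which forms peptide bonds, to a small subunit, which reads the mRNA, and about equal numbers of each protein are built into them. Ribosomal protein mRNAs are short and abundant. Most begin with a run of pyrimidines at the start of the 5′ end, the terminal oligopyrimidine or TOP motif, through which their translation follows mTOR signalling. In the embryonic kidney ribosome supply is tied to the growth of progenitors, and several members also have duties off the ribosome: Rpl5 and Rpl11 bind Mdm2 and so stabilise p53, and Rps6 is the classic substrate of S6 kinase.

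The sequences around 4 start sites, chosen because they hold CTTTCC, give examples of a pyrimidine run near the start. RefSeq promoter windows (GRCm38.p6) were found for 64 of the 88 members by symbol. The 4 below are from genes that are among the 10 highest by level and hold CTTTCC, which is in capitals. Each covers 30 bases before the start and 30 from it on, 5′ to 3′ on the gene's strand: Rpl18 at chr7:45718041-45718100 (+), Rps27 at chr3:90213619-90213678 (−), Rpl13a at chr7:45128716-45128775 (−) and Rpl28 at chr7:4792935-4792994 (+).
Rpl18: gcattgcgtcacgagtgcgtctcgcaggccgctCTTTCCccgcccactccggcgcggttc
Rps27: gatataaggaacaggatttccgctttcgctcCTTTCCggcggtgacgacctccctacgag
Rpl13a: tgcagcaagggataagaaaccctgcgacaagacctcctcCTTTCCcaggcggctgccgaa
Rpl28: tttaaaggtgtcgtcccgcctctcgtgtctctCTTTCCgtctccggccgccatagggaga
The capitals begin 2 to 10 bases into the transcript, counted from 1 at its start, in all 4 genes.

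CTTTC, searched on the gene's strand within 30 bases of the start, was present in 22 of 64 members (34.4%) and in 9.18% of 27025 genes with a window. CTTTCC, which contains it, was present in 11 members (17.2%) and in 3.40% of all genes. Over the whole window, from 250 bases before to 50 after the start and on both strands, CCGGAAG, a core of ETS factor sites, was present in 25 members (39.1%) and in 9.93% of all genes. AAGATGGC, from the YY1 motif, was present in 6 members (9.38%) against 3.19%, and TCTCGCGAG in 7 members (10.9%) against 0.762%. TATAAA, the TATA box, was present in 7 members (10.9%) against 15.7% of all genes. No member had CTTTCC and CCGGAAG in overlapping bases. These are matches of letters in a window, and no binding was measured.

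The Ntn1 level checked the labels, at 16.3, 13.1 and 10.7 FPKM in the 3 Ntn1SPKO libraries and 24.2 to 51.4 FPKM in the other 7, and all 13 kidney markers (among them Six2, Foxd1, Ret and Pax2) were detected, with sums of 578 to 661 FPKM. Read counts are not in the table. From the smallest steps between low values the depth was put at roughly 23400000 to 28800000 fragments per library, too coarse for a counting error. Wild-type replicate 3 and Foxd1GC control replicate 3 stood apart. Wild-type replicate 3 had a summed FPKM of 1002638, against 795829 to 874966 in the other 9 libraries. Control replicate 3 had 497 FPKM over 10 skeletal muscle markers, against 57.6 to 140 in the other 9, and its Ret was 4.09 FPKM, against 14.1 to 20.9. Y-linked markers summed to 88.6 to 98.1 FPKM in the 3 Ntn1SPKO libraries, control replicate 2 and wild-type replicate 3, and to at most 1.02 FPKM in the other 5, so Ntn1SPKO libraries and embryo sex cannot be told apart in full.

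Members held 16.1% to 20.4% of all summed FPKM, a unit per length and so not a share of reads. Of the 100 entries with the highest mean, 52 were members. Genes for the 77 proteins of both subunits and the stalk had means of 263 to 6047 FPKM with a median of 1722 FPKM, and 69 of them were above 1000 FPKM. This is a 23.0-fold range, and an 8.19-fold range, from Rpl22 at 739 FPKM up, once near-identical copies were added to the members they resemble.

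**Figure D1:**
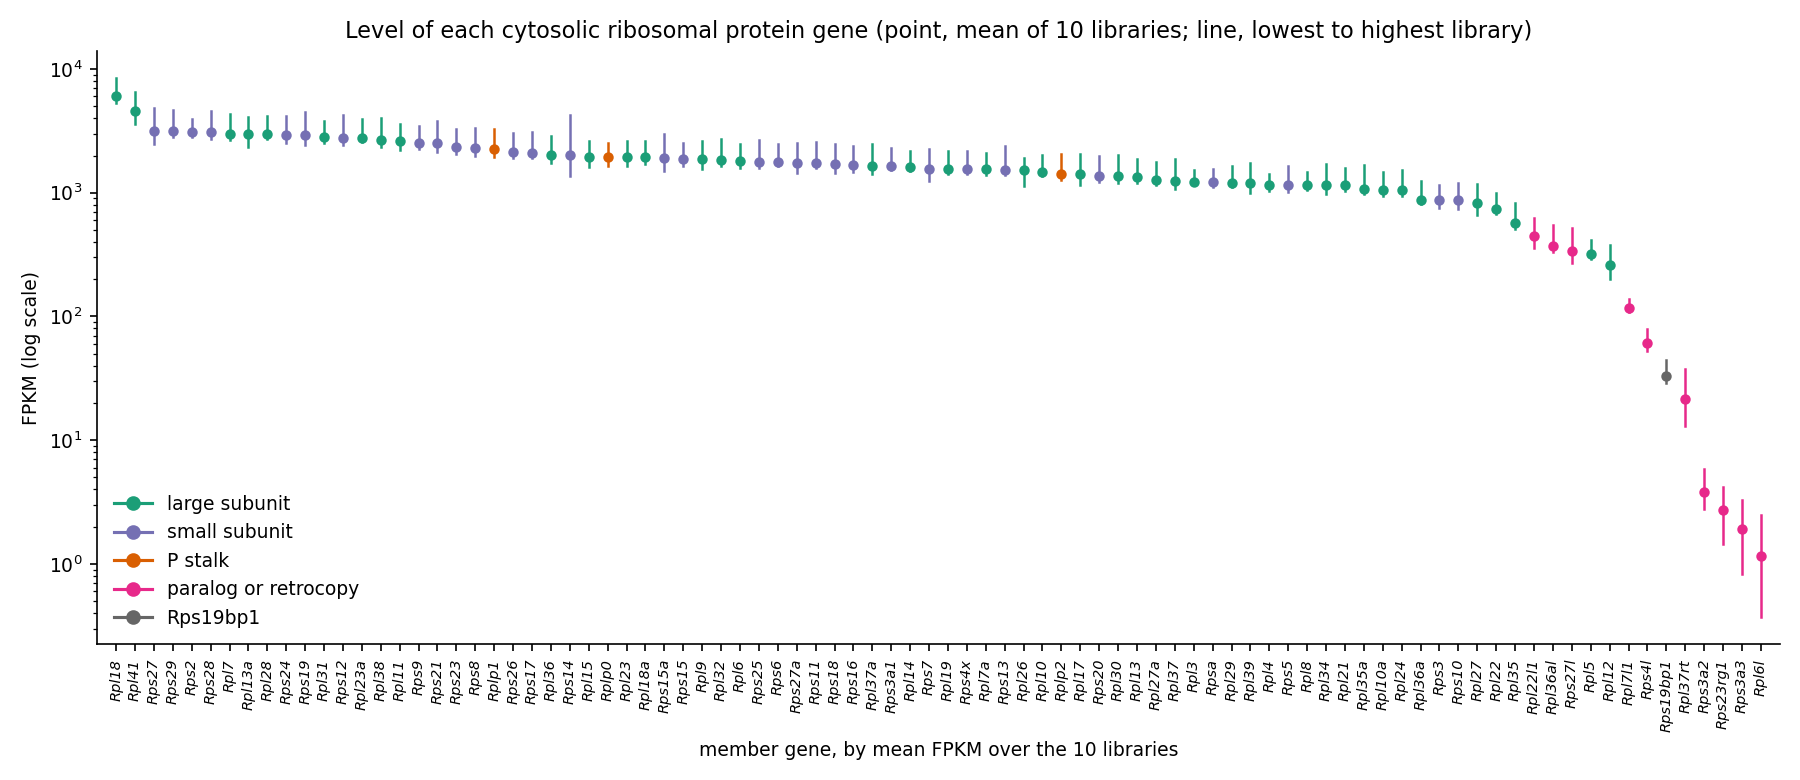
FPKM on a log axis for each of the 88 members, ordered by mean, where the point is the mean of the 10 libraries, the line runs from the lowest to the highest library, and colours mark large subunit, small subunit, P stalk, paralog or retrocopy, and Rps19bp1. Proteins of both subunits form a shelf from 6047 down to 263 FPKM, with Rpl5 and Rpl12 at its end, and the retrocopies fall to 1.16 FPKM.

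Rpl18, a protein of the large subunit, was highest with 5480, 5557, 8507 and 5903 FPKM in wild-type, 5836, 5753 and 6793 in control and 5343, 5842 and 5460 in Ntn1SPKO kidneys. Rpl41, with the shortest coding sequence of all (138 bases), followed with 3584, 4058, 6512 and 4326 FPKM in wild-type, 4970, 4501 and 5467 in control and 3960, 4370 and 4060 in Ntn1SPKO kidneys. The other 8 of the 10 highest were Rps27, Rps29, Rps2, Rps28, Rpl7, Rpl13a, Rpl28 and Rps24, with means from 2913 to 3150 FPKM that lie closer together than the libraries of any one of them. At the other end of the subunit proteins, Rpl5 had 292 to 417 FPKM and Rpl12, a protein near the base of the stalk, had 199 to 377 FPKM. Both have a near-identical processed copy with a higher value, described further on.

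The P stalk recruits elongation factors and is made of Rplp0, its anchor, with the acidic proteins Rplp1 and Rplp2. Means over the 10 libraries were 1934, 2276 and 1430 FPKM. In Ntn1SPKO kidneys the levels were 1757 ± 43.7 (SD, n = 3), 2018 ± 91.0 and 1325 ± 52.3 FPKM.

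Among small subunit proteins with known duties, Rpsa, the laminin receptor precursor, had 1136 ± 35.9 FPKM (SD, n = 3) in wild-type kidneys without replicate 3, and 1240 ± 211 (n = 4) with it. Rps19, mutated in many patients with Diamond-Blackfan anaemia, had 2553 ± 163 and 3039 ± 981 FPKM by the same 2 measures, and Rps6 had 1671 ± 29.4 and 1867 ± 394 FPKM. In each of the 3 the spread between wild-type libraries was mainly that of replicate 3 against the rest.

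Wild-type replicate 3 was the highest of all 10 libraries for 83 of the 88 members. It exceeded each of the other 3 wild-type libraries for 87 members, and over all 88 its level was a median of 1.54 times their mean, from 1.204 (Rpl7l1) to 2.11 (Rpl6l). Of the 5 members not highest there, 3 were highest in control replicate 3 and 2 in Ntn1SPKO replicate 2. With wild-type replicate 3 set aside, control replicate 3 was the highest of 9 libraries for 62 members, and wild-type replicate 1 the lowest for 43.

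**Figure D2:**
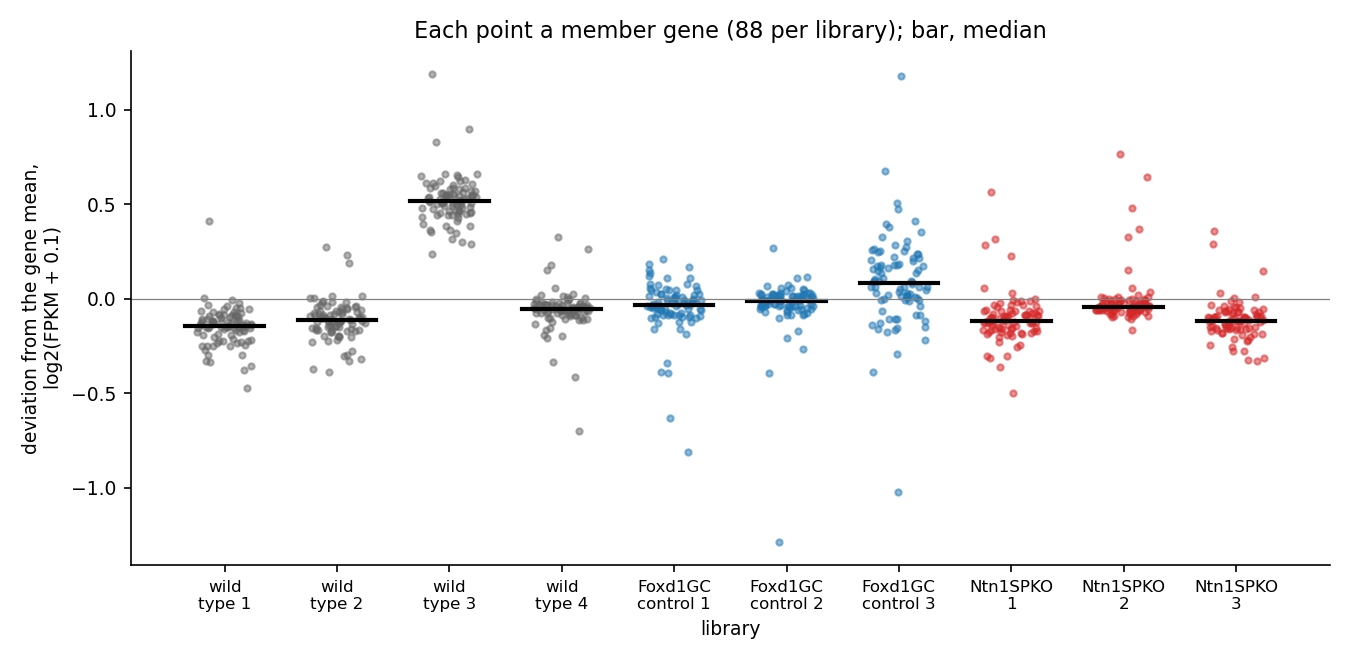
Deviation of each of the 88 members from its own mean over the 10 libraries, on log2(FPKM + 0.1), by library, with a bar at the median. Wild-type replicate 3 sits at a median of 0.52 and the other 9 libraries between −0.14 and 0.08.

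Its difference depended on coding length, and the members are short: their median coding length was 454.5 bases, against 1326 bases for the other tested genes. Wild-type replicate 3 exceeded the mean of the other 3 wild-type libraries by a median of 0.43 on the log2 scale for 470 other genes from 150 to below 300 bases, 0.30 for 940 genes from 450 to below 600 bases and 0.06 for 3705 genes from 900 to below 1500 bases, and was lower by 0.42 for 352 genes of 6000 bases and over (log2 difference −0.42). In the same classes members exceeded by 0.72 (n = 8), 0.66 (n = 18) and 0.44 (n = 5). Members were thus above other genes of like length in every class that held at least 5 of them. Mitochondrial ribosomal protein genes, which are also short but encode another ribosome, exceeded by a median of 0.46 (n = 78). Control replicate 3 differed from the other 2 controls by less, with 0.02 to 0.06 in the classes below 900 bases and −0.16 at 6000 bases and over among other genes, and with 0.07 to 0.20 among members.

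**Figure D3:**
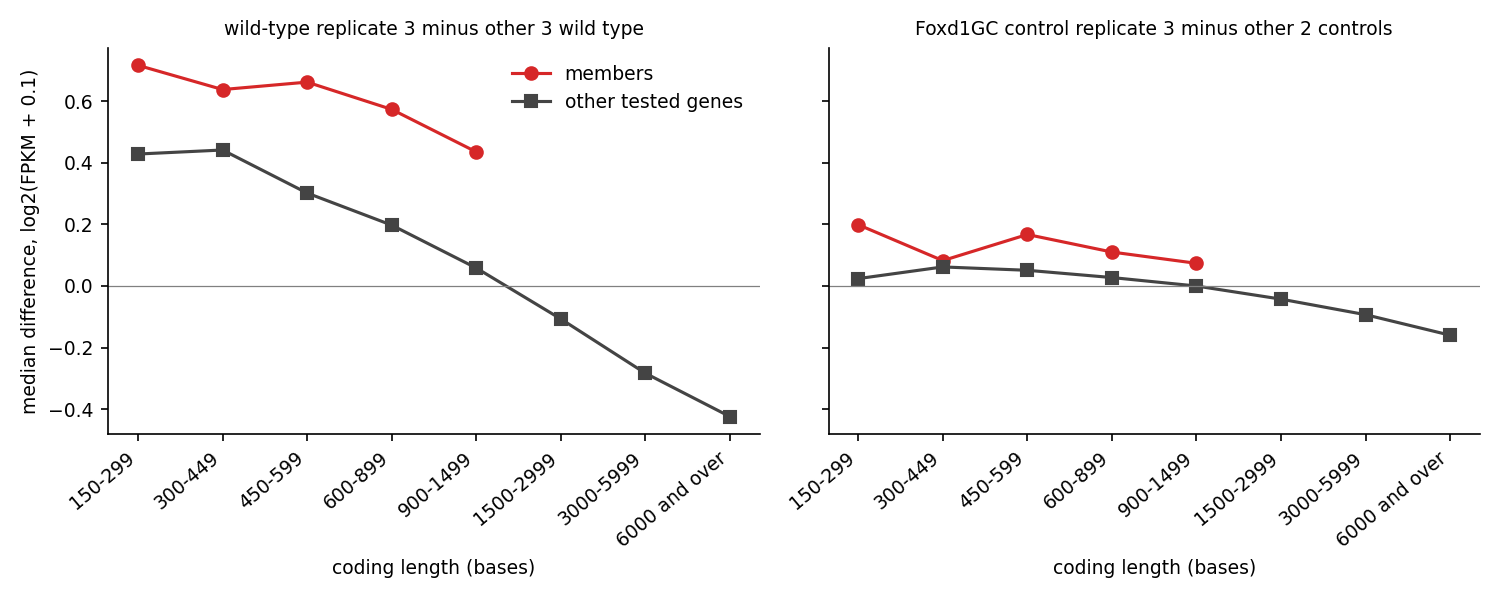
Median difference of wild-type replicate 3 from the other 3 wild-type libraries (left) and of control replicate 3 from the other 2 controls (right), on log2(FPKM + 0.1), by class of coding length in bases, for members (red circles) and all other tested genes (grey squares), with transcript length where no coding sequence is annotated and without genes under 150 bases (1 member, Rpl41). On the left both lines fall from the short to the long classes, other genes from 0.43 to −0.42, and members lie above them in each shared class.

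Ntn1SPKO was first compared with Foxd1GC control kidneys, which share the Cre allele and differ in Ntn1. By limma on log2(FPKM + 0.1), with Benjamini-Hochberg adjustment over 14550 genes, no member passed both an adjusted p under 0.1 and a 2-fold change, as 0.0550% of all genes did, and at an unadjusted p under 0.05 there were 19 members. At an adjusted p under 0.1 of any size there was 1 member, Rpl26, against 0.0687% of all genes. Of the 88 members, 74 had a lower mean in Ntn1SPKO kidneys, with a median log2 fold change of −0.10, against 0.01 for all genes, of which 48.8% were lower. The medians were −0.10 for the large subunit (36 of 43 lower), −0.12 for the small subunit (30 of 31 lower), −0.25 for the stalk (3 of 3 lower) and 0.15 for the paralogs and retrocopies (4 of 10 lower). At an unadjusted p under 0.05, 16 members were lower (18.2%, against 5.17% of all genes) and 3, Rpl26, Rpl37rt and Rpl23, were higher (3.41% against 5.49%). All 3 Ntn1SPKO libraries were below all 3 controls for 39 members (44.3%, against 8.91% of all genes) and above them for the same 3 (3.41% against 11.0%).

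These lower values were small and moved with scaling and with control replicate 3. After removal of each library's trend with coding length, the median was −0.03 with 52 of 88 members lower and 8 lower at an unadjusted p under 0.05 (9.09%, against 5.07% of all genes). After quantile normalisation it was −0.03 with 51 lower, and at that p 5 members were lower, against 4.82% of all genes, and 6 higher, against 5.14%, both near the background. With every library scaled to the same total it was −0.07 with 64 lower. Without control replicate 3 it was −0.06 with 71 lower, and 15 members were lower at an unadjusted p under 0.05, against 3.53% of all genes, and 40 did not overlap, against 11.6%. Without control replicate 2 instead, 26 members were lower at that p, as 11.3% of all genes were. Members held 17.3%, 17.3% and 18.1% of summed FPKM in the controls and 16.2%, 17.1% and 16.1% in the Ntn1SPKO libraries, ranges that do not overlap but lie next to each other. Wild-type replicates 1 to 4 held 16.1%, 16.3%, 20.4% and 17.1%, so all but replicate 3 also lay below the controls. With length-corrected values the shares were 17.2% to 17.7% in controls and 16.5% to 17.3% in Ntn1SPKO libraries, which overlap. Among skeletal muscle markers 9 of 9 tested were lower in Ntn1SPKO kidneys, with sums of 57.6 to 81.4 FPKM against 74.3 to 497 in controls and Ckm at 0 in all 3 mutants, as were 5 of 5 tested liver markers (4.15 to 14.0 against 12.6 to 31.4 FPKM), 8 of 8 erythroid markers (4700 to 18020 against 7693 to 17364 FPKM) and 6 of 6 macrophage markers (18.2 to 28.1 against 21.0 to 44.2 FPKM). Their part in the members' values was not tested.

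**Figure D4:**
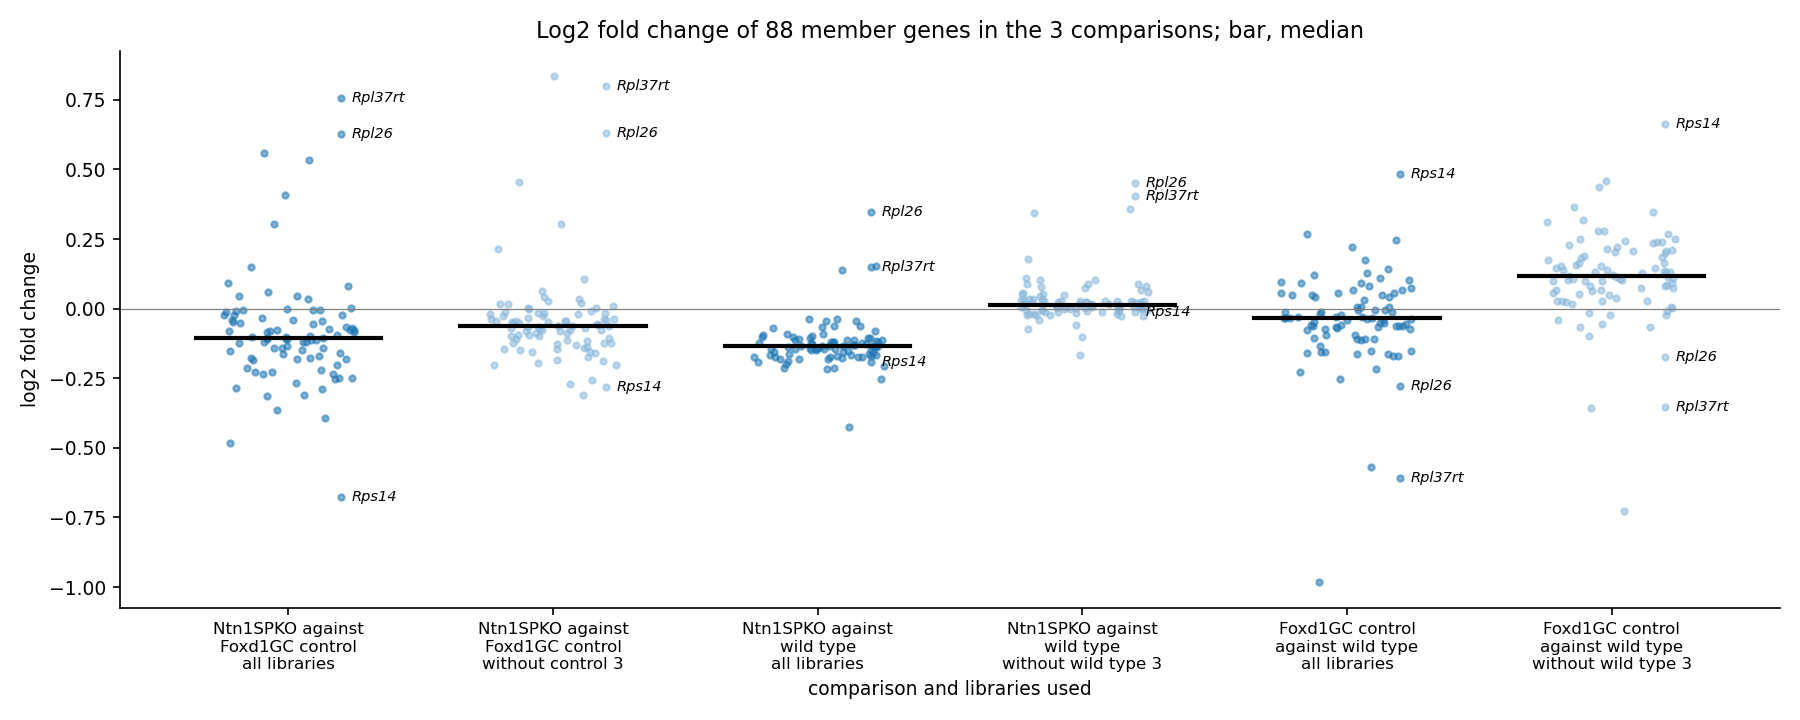
Log2 fold change of the 88 members in the 3 comparisons, each with all libraries and without the library that stood apart, with a bar at the median and Rpl26, Rpl37rt and Rps14 named. The median of Ntn1SPKO against wild-type kidneys moves from −0.14 to 0.01 without wild-type replicate 3, and that of control against wild-type kidneys from −0.03 to 0.12.

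The lowest log2 fold change was that of Rps14, a protein of the platform of the small subunit whose loss is tied to the anaemia of 5q- syndrome. It had 2193, 1641 and 4290 FPKM in controls, 1475, 1690 and 1521 in Ntn1SPKO and 1366, 1448, 2587 and 1967 in wild-type kidneys. Control replicate 3 was the highest of all 10, and the groups overlap (log2 fold change −0.68, SE 0.33, limma adjusted p = 0.45). Without that library the value was −0.28.

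Rps27, a zinc finger protein of the small subunit, had 3442, 2877 and 4877 FPKM in controls and 2477, 2842 and 2522 in Ntn1SPKO kidneys. Wild-type kidneys had 2490, 2492, 4480 and 2996 FPKM. Every Ntn1SPKO library was below every control, with control replicate 3 far above the other 2 (log2 fold change −0.48, SE 0.19, limma adjusted p = 0.447), and the value was −0.27 without it. Rpl12 had 286, 279 and 335 FPKM in controls and 209, 261 and 217 in Ntn1SPKO kidneys, without overlap (−0.39, adjusted p = 0.447). Its value shrank to −0.16 when its processed copy was added.

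Rpl11, the Mdm2-binding protein, had 2623, 2625 and 3297 FPKM in controls and 2204, 2424 and 2220 in Ntn1SPKO kidneys, again without overlap (log2 fold change −0.31, SE 0.10, limma adjusted p = 0.447). Wild-type kidneys had 2324, 2291, 3563 and 2595 FPKM. Rpl5, the partner of Rpl11, was nearly level at 292, 324 and 334 in controls against 317, 306 and 299.4 FPKM in Ntn1SPKO kidneys (−0.04). With the processed copy Gm15500 added to Rpl5, the sums were 1562, 1592 and 1758 against 1523, 1553 and 1473 FPKM, without overlap. Rplp0 and Rplp1 had log2 fold changes of −0.25 and −0.25 with no overlap between groups, and Rpl41 −0.27, while Rplp2 had −0.14. Each of these 5 had an adjusted p of at least 0.447.

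Several members with well known roles differed little. For Rps6 the log2 fold change was −0.01 (SE, given in brackets from here on, 0.05), Rpl10, a late-joining protein near the peptidyl transferase centre, −0.02 (0.05), Rps4x −0.01 (0.05), Rpl24 −0.11 (0.06), Rps25, which serves internal ribosome entry sites, −0.07 (0.06) and Rps19 −0.08 (0.08). Rpl38, needed for translation of Hox mRNAs and for the axial skeleton, had 2568, 2570 and 2972 FPKM in controls and 2355, 2528 and 2340 in Ntn1SPKO kidneys, without overlap (−0.16, SE 0.08, limma adjusted p = 0.447). Wild-type kidneys had 2371, 2400, 3994 and 2551 FPKM. The length-corrected log2 fold change of Rpl38 was −0.04.

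Rpl26, a protein of the large subunit that also binds the Trp53 mRNA, was the one member with an adjusted p under 0.1 in this comparison, short of a 2-fold change. It had 1170, 1236 and 1210 FPKM in controls and 1847, 1918 and 1816 in Ntn1SPKO kidneys. All 3 mutants were higher, by 0.63 on the log2 scale (SE 0.05, limma adjusted p = 0.0315). The exact permutation p was 0.1, two-sided and the smallest that 3 against 3 can give. The adjusted p by limma rose to 0.105 without control replicate 1 and to 0.104, 0.179 and 0.137 without Ntn1SPKO replicates 1, 2 and 3, and to 0.449 with all 10 libraries in one fit, at log2 fold changes of 0.60 to 0.64. Wild-type kidneys split, with 1143 and 1181 FPKM in replicates 1 and 2 and 1858 in replicate 4, while replicate 3 had 1824 in the library where most members were raised. Rpl26 lies at chr11:68901583-68906989 (+ strand, GRCm38), 500.759 kb from Ntn1 at chr11:68209364-68400823 (− strand). The other 6 members on chromosome 11 (Rps27a, Rpl23a, Rpl23, Rpl19, Rpl27 and Rpl38) had log2 fold changes of −0.31 to 0.15 and adjusted p of at least 0.447.

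The same libraries differed in Gm15772, a processed pseudogene of Rpl26 on chromosome 5 (chr5:3236431-3236868, + strand), and in the opposite direction. Gm15772 had 1034, 1061 and 1096 FPKM in controls, 990, 967 and 1498 in wild-type replicates 1, 2 and 3, and 5.63 FPKM in wild-type replicate 4. In Ntn1SPKO kidneys it had 15.1, 6.96 and 8.14 FPKM (log2 fold change against controls −6.79, SE 0.27, limma adjusted p = 0.000706). Libraries thus fell into 2 sets. Rpl26 held 52.5% to 54.98% of the sum of both entries in wild-type replicates 1, 2 and 3 and the controls, and 99.2% to 99.7% in wild-type replicate 4 and the 3 mutants. The sets did not follow the Y-linked markers, which were high in wild-type replicate 3 and control replicate 2 of the first set and low in wild-type replicate 4 of the second. The sum itself was 2205, 2296 and 2305 FPKM in controls and 1862, 1925 and 1824 in mutants, so that it was lower in the mutants where Rpl26 alone was higher (log2 fold change −0.28, SE 0.05, limma adjusted p = 0.448).

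Rpl26 and Gm15772 are hard to tell apart by short reads. Over 438 aligned bases they were identical at 436 (99.5%), and 84.8% of the 31-base words of Gm15772 occur in Rpl26. Both differences lie in exon 3 of 4 of Rpl26. Positions are counted from 1 at the first base of the aligned stretch and read from GENCODE M21 (GRCm38), and the windows below show 30 bases on either side with the differing base in capitals. The first, C177T, is at chr11 position 68903187 and chr5 position 3236607.
Rpl26: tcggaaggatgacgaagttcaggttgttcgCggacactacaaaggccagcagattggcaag
Gm15772: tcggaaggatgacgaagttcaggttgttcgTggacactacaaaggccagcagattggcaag
The second, T288C, is at chr11 position 68903298 and chr5 position 3236718.
Rpl26: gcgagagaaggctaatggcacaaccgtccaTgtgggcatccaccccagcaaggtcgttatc
Gm15772: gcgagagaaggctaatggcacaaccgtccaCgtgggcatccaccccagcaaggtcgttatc
A read that covers neither position matches both entries equally over this stretch. Which base the reads carried cannot be read from FPKM.

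**Figure D5:**
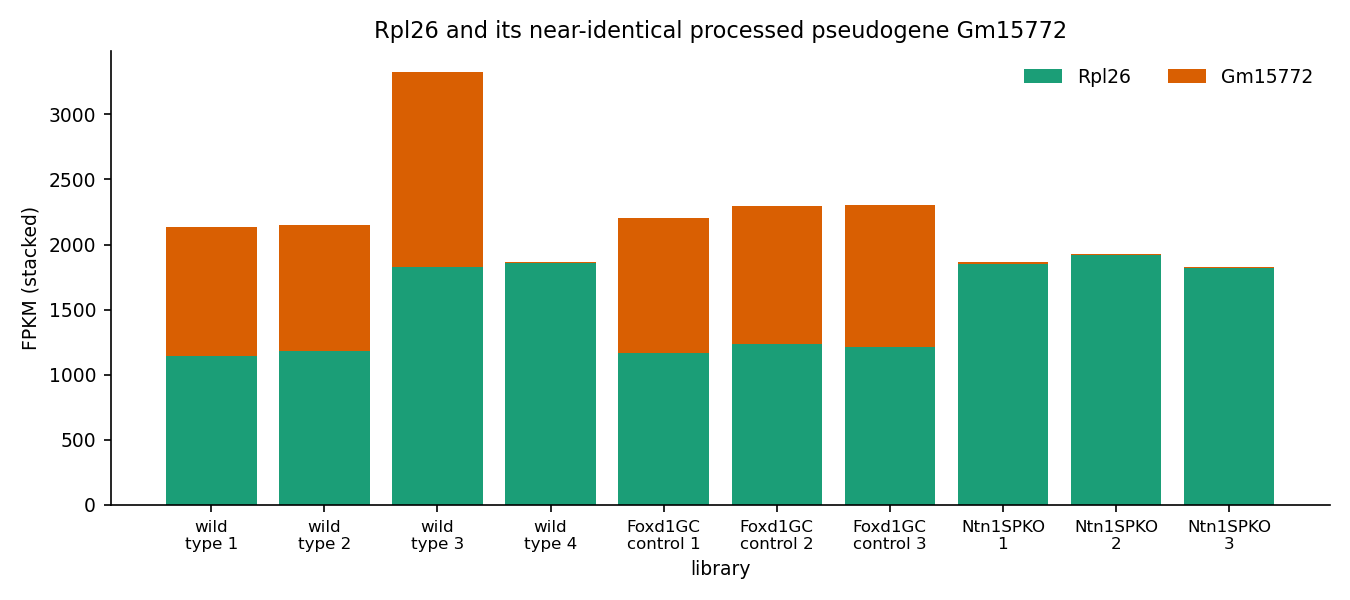
FPKM of Rpl26 (green) and of its processed pseudogene Gm15772 (orange), stacked from 0, in each of the 10 libraries. The orange part is 967 to 1498 FPKM in 6 libraries and 5.63 to 15.1 FPKM in wild-type replicate 4 and the 3 Ntn1SPKO libraries, in which the green part alone is 1816 to 1918 FPKM.

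Like Rpl26, 9 members had a copy in the table with a mean of at least 20 FPKM. At least 80% of the 31-base words of each copy occur in its member, so that the split values of these members are uncertain. The member held a minority of the sum for 3 of them. Rpl12 held 7.99% to 10.5% of its sum with Gm10275, Rpl5 18.7% to 21.3% with Gm15500 and Rpl35 22.8% to 24.5% with Gm2000. With the copies added, their mean levels were 2789, 1604 and 2407 FPKM, within the range of the other subunit proteins. The member held 86.7% to 90.7% for Rpl11, 79.5% to 82.4% for Rpl28, 58.1% to 60.4% for Rpl27a, 53.6% to 63.0% for Rpl36al, 53% to 65.5% for Rpl27 and 46.5% to 55.03% for Rpl36a. In none of these 9 did libraries fall into 2 distant sets as for Rpl26.

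Paralogs are duplicate genes, and some can replace their parent in the ribosome, often in a tissue-specific way. Ratios within a library do not depend on its scaling. Rpl22l1 had 370, 360, 621 and 439 FPKM in wild-type, 471, 413 and 618 in control and 368, 420 and 365 in Ntn1SPKO kidneys, which is 50.6% to 82.4% of Rpl22 in the same library. The log2 ratio was −0.80 ± 0.16 (SD, n = 4) in wild-type, −0.56 ± 0.27 (n = 3) in control and −0.87 ± 0.11 (n = 3) in Ntn1SPKO kidneys, and these ranges overlap. The highest ratio, −0.28, was that of control replicate 3.

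Rpl36al was 39.2% to 45.0% of Rpl36a, and Rps27l, a p53 target, 7.57% to 13.0% of Rps27. Rps4l, annotated as a transcribed processed pseudogene, was 3.52% to 4.72% of Rps4x. Rpl7l1, a nucleolar relative, was 3.20% to 4.20% of Rpl7. The Rps27l ratio was lowest in control replicate 3, where Rps27 was highest (−3.72, against −3.44 to −2.94 in the other 9 libraries). Rpl3l and Rpl39l, known from muscle and testis, had means of 0.0164 and 0.137 FPKM and were listed at 0 in 7 and 4 libraries. Rpl10l, an autosomal retrocopy of the X-linked Rpl10 used in spermatogenesis, and Rps27rt were listed at 0 in all 10. Rpl3l was at 0 in control replicate 3, the library with the highest skeletal muscle markers.

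Retrocopies at the low end included Rpl6l and Rps3a3, the most variable of all members. Rpl37rt, annotated as a transcribed processed pseudogene, had 13.0, 15.4 and 15.4 FPKM in controls and 29.96, 22.4 and 22.4 in Ntn1SPKO kidneys, without overlap, and 17.9, 23.8, 37.7 and 15.2 in wild-type kidneys (log2 fold change against controls 0.76, SE 0.14, limma adjusted p = 0.447). Rpl6l, Rps3a2, Rps3a3 and Rps23rg1 had means of 1.16 to 3.78 FPKM, and their log2 fold changes of 0.30 to 0.56 had standard errors of 0.24 to 0.49. Rpl6l was the lowest entry kept as a member, and Rpl32l, with 0.959 FPKM, the highest left out.

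The spread of subunit and stalk genes relative to each other was small. After subtraction of each library's median over these 77 genes, the SD of log2 values over the 10 libraries had a median of 0.08 and was under 0.1 for 58 of the 77. The SD of the levels themselves had a median of 0.21, which fell to 0.08 without wild-type replicate 3, so most of it was that library. Rps14 (0.43), Rpl26 (0.34), Rps27 (0.25), Rpl12 (0.18) and Rpl13a (0.17) varied most among them, and the Rps14 value was 0.18 without control replicate 3. The summed FPKM of the small subunit, divided by that of the large one, ranged from 0.822 to 0.866 in wild-type, from 0.841 to 0.874 in control and from 0.818 to 0.836 in Ntn1SPKO kidneys, and was highest in control replicate 3.

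Ntn1SPKO was next compared with wild-type kidneys, which differ in both the Foxd1GC and the Ntn1 alleles. Of 88 members, 84 had a lower mean in Ntn1SPKO kidneys, against 48.9% of all genes. The median log2 fold change was −0.14, against 0.003 for all genes. No member passed an adjusted p under 0.1 by limma, as 0.0693% of 14432 genes did, and 0.0485% passed both adjusted p and fold. None reached an unadjusted p under 0.05, as 2.45% of all genes did by being higher and 3.31% by being lower, and for none did the groups separate, as 3.56% and 3.54% did. Rps28, for example, had 2787, 2698, 4559 and 2925 FPKM in wild-type and 2716, 2908 and 2703 in Ntn1SPKO kidneys. Without wild-type replicate 3 the median was 0.01, against 0.01 for all genes, with 28 members lower and 60 higher, against 53.3% of all genes higher. At an unadjusted p under 0.05, 2 members, Rpl31 and Rpl26, were higher, against 3.28% of all genes. For 4, Rpl7, Rpl31, Rps23 and Rpl4, every mutant was above the 3 wild-type libraries left, against 6.42% of all genes. All 88 members together then held 16.5% ± 0.540 (SD, n = 3) of summed FPKM in wild-type and 16.5% ± 0.541 (n = 3) in Ntn1SPKO kidneys. The lower values of the first fit thus rested on wild-type replicate 3. In the same fit with all libraries, 8 of 9 skeletal muscle markers were lower in Ntn1SPKO kidneys (median log2 fold change −1.77), as were 4 of 4 liver markers (−0.87) and 6 of 6 macrophage markers (−0.16), and 8 of 8 erythroid markers were higher (0.34). Without wild-type replicate 3 these medians were −1.96, −0.75, 0.01 and 0.54, and the markers' part in the members' values was not tested. Scaled to the same total, the members' median in this comparison was −0.08. For Rpl26 the log2 fold change was 0.35 (SE 0.20, limma adjusted p = 0.947), or 0.45 without that library, with wild-type replicates 3 and 4 among the mutants' values.

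Foxd1GC control was compared with wild-type kidneys, which asks what the Foxd1GC allele brings, by Cre and by loss of a Foxd1 allele together. This comparison shares its controls with the first and its wild-type libraries with the second. No member passed an adjusted p under 0.1 by limma, as 0.00685% of 14594 genes did, and 1, Rpl6l, was lower at an unadjusted p under 0.05, against 3.23% of all genes, while 3.84% were higher. The groups separated for 1 member, Rpl23, which was lower in controls, against 4.04% of all genes in that direction and 4.04% in the other. The median log2 fold change was −0.03 with 59 members lower, against −0.01 and 51.6% lower for all genes. Without wild-type replicate 3 the members' median was 0.12, with 75 of 88 members higher, against 50.8% of all genes. At an unadjusted p under 0.05, 18 members were higher (20.5%, against 5.25% of all genes), and 31 were higher without overlap (35.2% against 9.17%). No member passed an adjusted p under 0.1 there either.

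Rpl12 had the lowest p of these, with 218, 199 and 248 FPKM in wild-type replicates 1, 2 and 4 and 286, 279 and 335 in controls, without overlap (log2 fold change 0.44, limma adjusted p = 0.469). With its copy Gm10275 added the difference was 0.23. Rpl41 had 0.32, Rplp0 0.25, Rplp1 0.21 and Rpl13a 0.36 on the same scale, each without overlap, and Rps27 and Rps14 had 0.46 and 0.66 with overlap. With the trend in length removed as well, the median was 0.04 with 57 of 88 members higher, and at an unadjusted p under 0.05 only 3 were higher, against 4.33% of all genes, and 3 lower, against 4.36%, so no excess over the background was left. Erythroid markers, 8 of 8 tested, were also higher in controls, with sums of 7693 to 17364 FPKM against 4608 to 10497 in wild-type kidneys, as were 9 of 9 skeletal muscle markers (74.3 to 497 against 84.7 to 140 FPKM), 5 of 5 liver markers (12.6 to 31.4 against 7.24 to 23.8 FPKM) and 6 of 6 macrophage markers (21.0 to 44.2 against 21.8 to 30.7 FPKM), and their part in the members' values was not tested.

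Other genes of the ribosome and its supply were described beside the members in the first comparison. Rack1, a scaffold on the small subunit, and Fau, which is made as a fusion, are ribosomal proteins outside the name rule and had lower means in Ntn1SPKO kidneys (log2 fold changes −0.32 and −0.12, limma adjusted p of at least 0.447). Translation factors and other TOP genes had 7 of 20 lower, with a median of 0.04. Ribosome biogenesis and RNA polymerase I genes had 33 of 42 higher, with a median of 0.15 and 13 at an unadjusted p under 0.05, against 51.2% of all genes higher and 10.7% at that p. Without control replicate 3 the median was 0.11 with 32 higher and 9 at that p, against 7.23% of all genes. When length-corrected it was 0.13 with 8 at that p, against 9.55% of all genes. Ncl (nucleolin, 0.37), Nat10 (an rRNA acetyltransferase, 0.35) and Tsr1 (small subunit maturation, 0.32) had the largest values. A list on control of ribosomal protein mRNA translation, which also holds the transcription factors Myc and Mycn, had 9 of 13 higher (median 0.18, with Mycn at 0.40). It mixes activators and inhibitors, so this count has no single direction. The median was 0.08 without control replicate 3 and 0.08 when length-corrected. For p53 and its targets 10 of 12 were higher (median 0.15, with Ccng1 at 0.33), with a median of 0.10 without control replicate 3. Of 78 mitochondrial ribosomal protein genes 50 were lower, with a median of −0.03, but when length-corrected 36 were lower, with a median of 0.01. Against wild-type kidneys, 27 of the 42 ribosome biogenesis genes were higher in Ntn1SPKO kidneys, with a median of 0.03. None reached an unadjusted p under 0.05, against 5.76% of all genes. In Foxd1GC controls 37 of the 42 were lower than in wild-type kidneys, with a median of −0.11. At that p there were 6, against 7.06% of all genes. No gene of these lists passed an adjusted p under 0.1 in the first comparison, and the lists were set beside the members as counts and medians only.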

How the data were processed

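RNA from whole E13.5 kidneys was sequenced by the authors, who estimated transcript abundance with Salmon against an index of GRCm38 coding sequences, imported it with tximport and used DESeq2. bcl2fastq 2.17.1.14 is also named in the submitters' processing notes. The deposited values are FPKM for 35663 entries in 10 libraries, not read counts, and how FPKM were derived is not given in the sources used here. Median-of-ratios factors over 16550 genes were 1.00 in all libraries, so the authors' FPKM already carry that scaling.

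The limma package 3.58.1 (R 4.3.3) was fitted to log2(FPKM + 0.1) of each gene whose mean in the libraries of the fit reached 0.5 FPKM (eBayes with an intensity trend, Benjamini-Hochberg adjustment over all genes tested), and fold changes on this scale understate changes of low genes. A call needed both a 2-fold change and an adjusted p under 0.1. The fits were tested on simulated data. Annotation was GENCODE M21 (GRCm38), in which 87 of the 88 members were found by symbol, and copies were found by shared 31-base words of transcripts. Motifs were searched in RefSeq windows of GRCm38.p6.

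Members named were the 10 highest and 10 lowest, paralog pairs, the 5 largest changes in each direction per comparison, members at an adjusted p under 0.1 and a list of members with known roles. Rpl32l, Rpl31, Rps23, Rpl4, members with copies and the genes on chromosome 11 were named after their values were seen. Members and gene lists were chosen with earlier results of these data known. Alternatives were other pseudocounts, filters, scalings and variance settings, a replicate block, other member sets and leaving out each library. Summing near-identical copies, and correcting for length while leaving out wild-type replicate 3, are alternatives chosen after seeing the data. Neural markers (sums of 13.2 to 25.6 FPKM) were also checked. A result for 1 listed gene is not reported here.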

Additional observations from a re-analysis of the deposited data

Results flagged for a closer look

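Among the 4 wild-type libraries, 1 was set far from the other 3 by Dixon's test (which takes the gap to the nearest library over the range), which chance alone does in about 1 of 20 groups. For the summed FPKM of the members the gap was 0.864 of the range and for their median 0.837, and wild-type replicate 3 was the highest in both. The same was found for 54 of the 88 members one by one, and in all 54 the library was wild-type replicate 3 and the highest. These members share that library, so the 54 are not separate findings. For the share of the Rpl26 and Gm15772 sum that Rpl26 holds, the gap was 0.969, with wild-type replicate 4 at 99.7% and the others at 53.6% to 54.98%. For the share of Rpl36a in its sum with Rpl36a-ps2 it was 0.839, with wild-type replicate 1 at 55.03% and the others at 51.8% to 52.4%.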

How the results depend on the processing

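The count of members past both limits was 0 in each of the 3 comparisons under every alternative run. The count at an adjusted p under 0.1 for Ntn1SPKO against Foxd1GC control kidneys, 1 as reported (Rpl26), was 0 without the intensity trend (adjusted p of Rpl26 0.117), with all 10 libraries in one fit (0.449), with near-identical copies summed, and with the replicate number as a block (0.444), and ranged from 0 to 1 when libraries were left out. It was lost without Foxd1GC control replicate 1 (adjusted p = 0.105) and without Ntn1SPKO replicate 1 (0.104), 2 (0.179) or 3 (0.137). The log2 fold change of Rpl26 was positive under each of these except with the copies summed, where it was −0.28. The members' median in that comparison, −0.10, became −0.0291 when length-corrected and −0.0296 when quantile normalised, and was −0.13 to −0.06 when libraries were left out. It was −0.20 to 0.01 against wild-type kidneys, and −0.10 to 0.12 for control against wild-type kidneys, with the change of sign without wild-type replicate 3 in both. Without mitochondrially encoded genes in the total, the members' share was 18.7% in control and 17.6% in Ntn1SPKO kidneys, since the total is smaller. Same-numbered libraries did not deviate together (correlations −0.05 to 0.08 across genes), so numbers were not taken as pairs. Rescaling to the same total moved the median of all genes by under 0.1 on the log2 scale, and the members' median to −0.07 against control and −0.08 against wild-type kidneys. Precision is limited by 3 or 4 libraries a group, and FPKM without counts give no counting error.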
